A study of Mus musculus with 7 samples.

Results

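Inhibitors of cyclin-dependent kinases (CDKs) and the F-box proteins that mark cell cycle regulators for destruction were followed in mouse T-cell leukemias. The set held the CIP/KIP inhibitor genes Cdkn1a, Cdkn1b and Cdkn1c, the INK4 inhibitor genes Cdkn2a, Cdkn2b, Cdkn2c and Cdkn2d, and the F-box genes Skp2 and Fbxw7. Every probe set annotated to exactly 1 of these symbols was taken, which gave 17 probe sets for 9 genes, of 45037 probe sets and 18193 named genes in the table. All 9 genes had at least 1 probe set, 0 member probe sets carried several symbols, and no filter on low values was applied. The arrays held RNA from C57Bl/6 mice that were terminally ill with leukemia, 1 array per sample. ICN1 is the activated intracellular part of NOTCH1, and its 3 arrays held cells crushed from bone marrow. TEL-JAK2 is a fusion that makes the kinase JAK2 constantly active, and its 4 arrays held cells of the thymus. The sources used here do not give the promoter or vector behind either oncogene or the animals' age, and no array of normal T cells or of untreated mice was analysed here.

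CDKs paired with cyclins drive a cell from G1 into DNA replication. INK4 proteins bind CDK4 and CDK6 and keep them from D-type cyclins, while CIP/KIP proteins bind complete cyclin-CDK complexes, above all those with CDK2. SKP2 and FBXW7 are the substrate-binding parts of SCF ubiquitin ligases: SKP2, with its cofactor CKS1, hands p27 and p21 to the proteasome, and FBXW7 does so for cyclin E, MYC and active NOTCH1. In human T-cell leukemia the CDKN2A locus is often deleted and FBXW7 often mutated, and Skp2 is known as a gene that NOTCH signalling can induce. All of these proteins are also controlled after transcription, which arrays do not measure.

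Genotype and tissue came together, so the 2 cannot be told apart in any comparison here. The labels describe crushing, filtering and pelleting of the tissue and name no sorting step, and in such bulk samples fewer cells of a type and less RNA per cell cannot be told apart. T-lineage genes were bright in all arrays, with a mean log2 level over 10 genes of 11.40 to 11.55 in ICN1 and a higher one, up to 12.12, in every TEL-JAK2 array (7 genes higher, Cd5 lower). Erythroid genes stood at 11.14 to 11.39 in ICN1 and 5.88 to 6.15 in TEL-JAK2 (12 genes, 10 of them lower in TEL-JAK2). Over all genes 11.9% were higher and 12.2% lower, by the threshold given below. ICN1 replicates 1 and 2 stood apart in carrying both Xist (11.51 and 11.78) and the Y-linked Eif2s3y (8.93 and 9.41), whereas ICN1 replicate 3 read 12.09 and 3.25. Results are therefore also given without these 2 arrays. In that fit the single ICN1 array left is assumed to vary like the TEL-JAK2 arrays. TEL-JAK2 replicate 4 also differed from the rest of its group, with Xist at 5.19 and Eif2s3y at 10.23. TEL-JAK2 replicates 1 to 3 read 13.12 to 13.36 for Xist and 3.18 to 3.29 for Eif2s3y. The labels give the arrays different identifiers but do not state that these are separate animals, so p-values measure the spread between samples.

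Differences below are TEL-JAK2 minus ICN1 on the log2 scale with the standard error (SE), for n = 3 and n = 4 arrays. A probe set was called at a limma adjusted p under 0.05 over all 45037 probe sets, where 19.6% were called (9.26% higher and 10.3% lower in TEL-JAK2). Of the 17 member probe sets 5 were called, all lower and all of Skp2, and 12 were not. Counted by gene, with the brightest probe set for each, 1 of 9 was called, against 24.1% of all genes. The median difference was -0.09 over the members and 0.04 over all probe sets. The groups did not overlap in 7 of the 17, against 30.7% of all probe sets. Of these 5 were lower in TEL-JAK2, against 14.4% of all probe sets, and 2 were higher, against 16.2%.

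**Figure D1:**
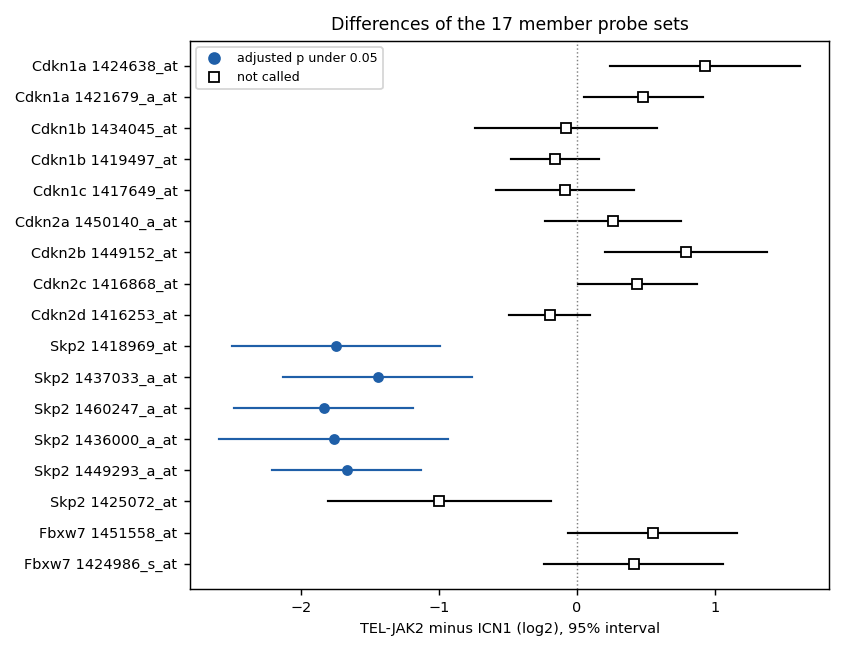
Difference of each of the 17 member probe sets, TEL-JAK2 minus ICN1 on the log2 scale, with its 95% interval from limma. Filled circles are called probe sets and open squares are not called: 5 of the 6 Skp2 intervals lie between -2.59 and -0.76 and are called.

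Skp2 was the only member with called probe sets. This gene of chromosome 15 (9111982 to 9155425, GRCm38.p6) encodes the F-box protein that directs p27 to degradation. RefSeq gives 2 start windows for it, each holding the 250 bases before a start and 50 after it. They are shown because Skp2 carries the one called difference, and capitals mark matches to the motifs searched.

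Skp2 outer start, chr15:9155376-9155675, minus strand: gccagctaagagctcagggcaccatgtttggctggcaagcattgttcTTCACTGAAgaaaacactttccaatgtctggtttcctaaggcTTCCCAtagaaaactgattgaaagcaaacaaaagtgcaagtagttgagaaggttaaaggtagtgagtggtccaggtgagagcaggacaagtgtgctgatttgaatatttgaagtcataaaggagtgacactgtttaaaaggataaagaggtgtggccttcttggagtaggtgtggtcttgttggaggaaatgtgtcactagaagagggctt
Skp2 inner start, chr15:9140405-9140704, minus strand: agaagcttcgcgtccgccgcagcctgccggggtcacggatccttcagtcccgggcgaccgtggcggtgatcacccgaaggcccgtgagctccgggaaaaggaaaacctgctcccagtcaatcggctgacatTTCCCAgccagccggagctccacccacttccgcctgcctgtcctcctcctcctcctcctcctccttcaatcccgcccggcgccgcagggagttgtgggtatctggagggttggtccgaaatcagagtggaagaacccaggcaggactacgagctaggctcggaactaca

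Both strands were searched for the STAT motif TTCNNNGAA, the RBPJ motif TGGGAA, the FOXO motif GTAAACA and the E-box CACGTG. For E2F the letters TTCCCGC were searched, as well as TTGGCGC and also TTCGCGC. The matches found in the members' windows do not overlap each other. Counted from the start, the outer window held 1 STAT match at position -203 and 1 RBPJ match, read on the opposite strand, at position -161. The inner window held 1 RBPJ match, again on the opposite strand, at position -119. No member window held the FOXO motif. Of all 32851 promoter windows of this length, 8.3% held the STAT motif and 25.6% the RBPJ motif. An E2F motif lay in 8.07% of them, the E-box in 7.15% and the FOXO motif in 3.65%. Of the 14 member windows 1 held the STAT motif, 5 the RBPJ motif, 2 an E2F motif and 1 the E-box. Among the windows of the other members, RBPJ matches lay in 1 of Cdkn1a, 1 of Cdkn2a and 1 of Cdkn2d, E2F matches in 1 of Cdkn2a and 1 of Cdkn2c, and an E-box in 1 of Cdkn2c. A match is a description of letters, not a bound site, and these arrays do not tell which start a transcript used.

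The brightest Skp2 probe set, 1418969_at, read 9.48, 9.19 and 8.77 in ICN1 replicates 1 to 3 and 8.01, 6.80, 7.03 and 7.76 in TEL-JAK2 replicates 1 to 4. Every ICN1 array lay above every TEL-JAK2 array, with a gap of 0.76 between the groups. Skp2 was thus 3.35-fold lower in TEL-JAK2 (-1.74 ± 0.32, limma adjusted p = 0.00912).

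The other called probe sets gave differences of similar size. Probe set 1460247_a_at read 8.78, 8.58 and 8.13 against 7.15, 6.40, 6.14 and 6.97, a difference of -1.83 ± 0.28 (limma adjusted p = 0.00391). Probe set 1449293_a_at read 8.19, 8.09 and 7.65 against 6.73, 6.00, 5.98 and 6.56, a difference of -1.67 ± 0.23 (limma adjusted p = 0.00277). In these the groups were 0.98 and 0.93 apart. Probe sets 1437033_a_at (-1.44 ± 0.29) and 1436000_a_at (-1.76 ± 0.35) were lower as well, with limma adjusted p = 0.0133 and 0.0128, and their groups did not overlap either. The 6 probe sets read 1 gene and are not 6 independent observations.

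The sixth probe set, 1425072_at, read 7.53, 7.69 and 6.30 in ICN1 and 6.26, 5.97, 5.89 and 6.58 in TEL-JAK2. ICN1 replicate 3 fell within the TEL-JAK2 range here, and the difference of -1.0 ± 0.35 was not called (limma adjusted p = 0.0887). Without ICN1 replicate 3 it was called (-1.43, adjusted p = 0.00636).

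The arrays of a group also kept an order across the Skp2 probe sets. TEL-JAK2 replicates 1 and 4 lay above replicates 2 and 3 in 6 of 6 probe sets, and ICN1 replicate 3 was the lowest ICN1 array in 6 of 6. The 4 TEL-JAK2 arrays spanned 0.70 to 1.41 and the 3 ICN1 arrays 0.54 to 1.39. All 5 called probe sets stayed called in each of the 7 fits without 1 array (adjusted p at most 0.0473). Without ICN1 replicates 1 and 2 together 0 of the 6 were called: the brightest read -1.37 (adjusted p = 0.143) and the others -1.50 to -0.12 (adjusted p from 0.0592 to 0.849).

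**Figure D2:**
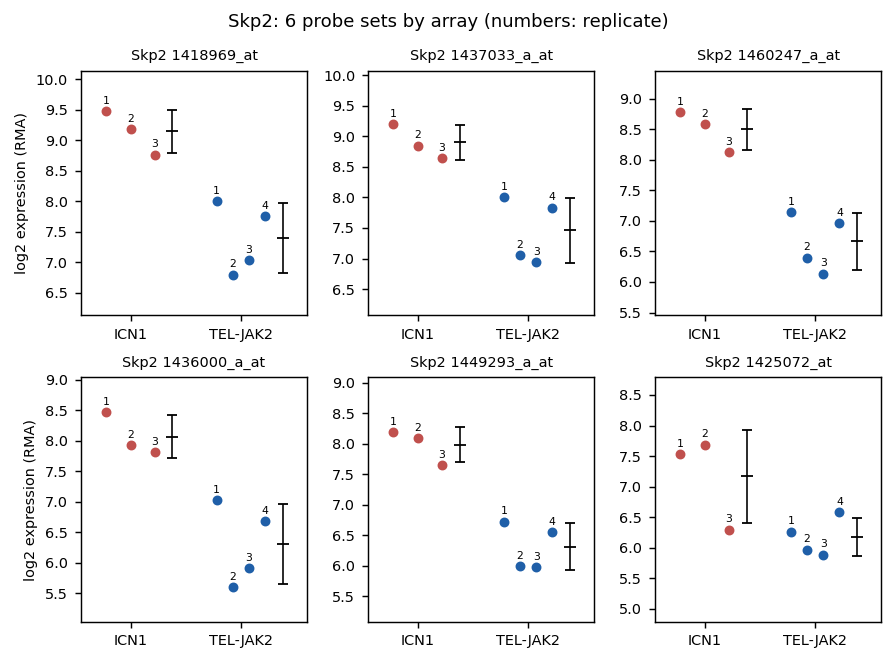
Log2 expression of the 6 Skp2 probe sets in each array (points, numbered by replicate), with the mean and SD of each group beside them; each panel spans 4 log2 units. In 5 panels all 3 ICN1 arrays lie above all 4 TEL-JAK2 arrays, and in 1425072_at ICN1 replicate 3 lies among the TEL-JAK2 arrays.

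Genes with the profile most like that of Skp2 were sought by the root mean square difference from 1418969_at over the 7 arrays, after subtracting each profile's mean. The closest of 18192 other genes were Nt5dc2 (0.20 log2), Ankle1 (0.21) and Tyms (0.22), the last encoding thymidylate synthase, which supplies dTTP for DNA replication. Tyms read 8.26, 8.31 and 7.24 in ICN1 and 6.45, 5.61, 5.56 and 6.44 in TEL-JAK2. These genes were picked for their likeness over the same arrays, so their shared order of arrays is no separate observation.

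Genes of proliferating cells were lower in TEL-JAK2 in 22 of 22 measured, against 12.2% of all genes. Mki67, a standard marker of cycling cells, differed by -2.26 ± 0.28 (limma adjusted p = 0.00151 over 18193 genes), and the smallest difference of the list was that of Pcna, the sliding clamp of DNA replication (-0.67 ± 0.12). The mean level of this list was 11.35 to 11.45 in ICN1. In TEL-JAK2 it was 10.17, 9.75, 9.28 and 10.07 in replicates 1 to 4, again highest in 1 and 4. The count was 21 or 22 in each fit without 1 array, and 9 without ICN1 replicates 1 and 2 together. The erythroid list (11.14 to 11.39 against 5.88 to 6.15) and the monocyte and macrophage list (8.26 to 9.45 against 6.03 to 8.09, 6 of 14 genes lower) moved with the groups as well. So did the granulocyte list (5.93 to 7.44 against 5.16 to 5.55, 5 of 13 lower) and the megakaryocyte and platelet list (6.57 to 8.25 against 5.39 to 5.74, 4 of 6 lower). The thymic epithelial list was higher in TEL-JAK2 (4.90 to 5.39 against 5.63 to 6.15, 3 of 11 higher, against 11.9% of all genes). Its ICN1 levels lay below the array medians. In the fits without 1 array 2 to 7 macrophage and 2 to 7 granulocyte genes were lower. So were 1 to 4 megakaryocyte and platelet genes, while 1 to 3 thymic epithelial genes were higher. Without ICN1 replicates 1 and 2 the median differences of these lists were, in that order, -0.88, -0.18, -0.52 and 0.41. The brightest erythroid genes averaged 13.25 and 11.58 (Tfrc, lower) and 10.49 and 9.68 (Gata1, not called) in ICN1 and TEL-JAK2, and the red cell anion exchanger Slc4a1 13.84 and 5.07. The brightest macrophage genes averaged 10.64 and 10.95 (Lyz2, not called) and 11.59 and 9.0 (Csf1r, lower). The part of these cells in the differences of Skp2 and the proliferation genes was not tested.

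**Figure D3:**
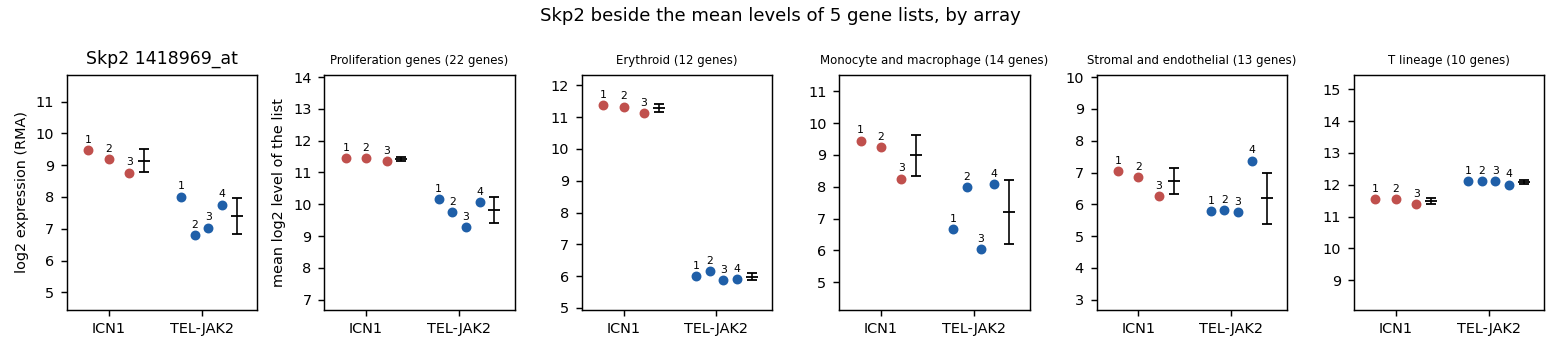
Log2 expression of Skp2 (1418969_at) and mean log2 levels of 5 gene lists in each array, with group mean and SD; each panel spans 7.4 log2 units. The proliferation and erythroid lists lie higher in all ICN1 arrays, the T-lineage list higher in all TEL-JAK2 arrays, and the stromal and endothelial list is highest in TEL-JAK2 replicate 4 (7.38).

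The SCF core and the cofactors of SKP2 had 4 of 8 genes lower, against 12.2% of all genes. Of the list 0 were higher, against 11.9%, and 4 were not called. The median was -0.50 against 0.04 for all genes. Cks1b, which encodes the CKS1 cofactor needed to recognise p27, read 13.00, 13.09 and 13.08 in ICN1 and 12.36, 12.15, 11.62 and 12.37 in TEL-JAK2 (-0.93 ± 0.19, limma adjusted p = 0.0111). Its relative Cks2 was 3.55-fold lower (-1.83 ± 0.24) and the scaffold gene Cul1 1.88-fold lower (-0.91 ± 0.13). Cops5, a subunit of the COP9 signalosome that strips NEDD8 from cullins, was also called (-0.68 ± 0.13), from 1 of its 2 probe sets. The adaptor gene Skp1 (0.00 ± 0.11) and Rbx1, the RING subunit (-0.05 ± 0.16), were not called. Without ICN1 replicates 1 and 2 the calls left were those of Cul1 and Cks2.

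Of 10 other ligase components and adaptors that act on p21 or p27 or hold such ligases in check, 8 were lower. The share over all genes was 12.2%. The other 2, Cul4b (1 of its 2 probe sets called lower) and Rchy1, were not called. The count was 7 without TEL-JAK2 replicate 2 or 3, and 8 in the other fits without 1 array. Without ICN1 replicates 1 and 2 the list median was -1.29, against -1.51 with all arrays. The KPC complex, which removes p27 in G1, consists of Rnf123 and Ubac1. Rnf123 read 10.65, 10.77 and 10.85 in ICN1 and 8.83, 9.26, 9.16 and 8.91 in TEL-JAK2 (-1.71 ± 0.13, limma adjusted p = 0.000204). Ubac1 differed by -2.56 ± 0.10, a 5.89-fold difference. Fzr1, the CDH1 activator of the anaphase-promoting complex that in turn degrades SKP2, was 3.51-fold lower (-1.81 ± 0.15), and its groups did not overlap. The erythroid list again moved with these genes, at the levels given above, and its part was not tested.

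Of 7 further genes whose proteins are marked by SKP2, 3 were higher, 3 lower and 1 (Tob1, 1.05 ± 0.40) not called. Over all genes 11.9% were higher and 12.2% lower. Rbl2, the pocket protein p130 of resting cells, was 2.64-fold higher in TEL-JAK2 (1.40 ± 0.20), and Foxo1, a transcription factor that activates Cdkn1b, 1.76-fold higher (0.82 ± 0.11). Dusp1, a MAP kinase phosphatase, was higher as well (0.78 ± 0.22, limma adjusted p = 0.0423), but of the 7 fits that leave out 1 array only the fit lacking ICN1 replicate 2 called it. The replication licensing genes Orc1 (-2.24 ± 0.15) and Cdt1 (-1.11 ± 0.18) and the cell cycle transcription factor Mybl2 (-2.05 ± 0.19) were lower. Without ICN1 replicates 1 and 2 Cdt1 was not called (adjusted p = 0.0997). With arrays centred on CD3 genes, which shifts all differences downward, Foxo1 (0.20, adjusted p = 0.388) and Dusp1 (0.16) were not called.

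**Figure D4:**
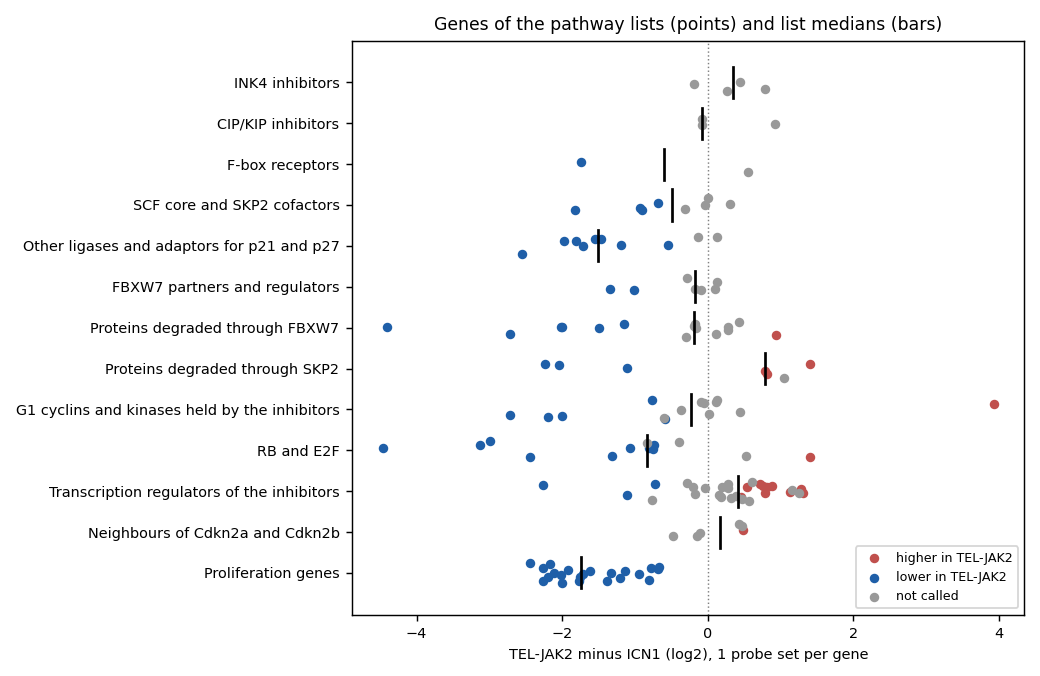
Difference of each gene of the pathway lists, TEL-JAK2 minus ICN1 on the log2 scale, with 1 probe set per gene (points, coloured by call) and the list median (bar). All 22 proliferation genes lie below 0 and are called, and no INK4 or CIP/KIP gene is called.

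The CIP/KIP genes, by contrast with Skp2, had 0 of 5 probe sets called by limma, while 2 of the 5, those of Cdkn1a, had an unadjusted p under 0.05, as did 32.4% of all probe sets. Cdkn1b encodes p27, the main target of SKP2. Its bright probe set 1434045_at read 9.91, 10.77 and 10.76 in ICN1 and 10.56, 10.39, 10.78 and 9.86 in TEL-JAK2. The groups overlapped, and the highest and the lowest value both belonged to TEL-JAK2, in replicates 3 and 4. The difference was -0.08 ± 0.28 with a 95% interval from -0.74 to 0.58 (limma adjusted p = 0.881), so the interval holds differences of either sign. The other probe set, 1419497_at, lay between 4.19 and 4.74 in all arrays, below the array medians of 5.44 to 5.5, and differed by -0.16 ± 0.14.

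Cdkn1a encodes p21, the inhibitor induced by DNA damage. Probe set 1424638_at read 7.18, 6.81 and 7.27 in ICN1 and 8.42, 8.10, 7.20 and 8.32 in TEL-JAK2. TEL-JAK2 replicates 1, 2 and 4 lay above all ICN1 arrays, and replicate 3 lay among them. The difference of 0.93 ± 0.30, 1.9-fold, missed the threshold (limma adjusted p = 0.0672). Without TEL-JAK2 replicate 3 it was 1.2 and called (adjusted p = 0.00525), and with dim probe sets left out it was called as well (adjusted p = 0.0433).

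The second Cdkn1a probe set, 1421679_a_at, read 6.17, 5.96 and 6.38 against 7.08, 6.47, 6.40 and 6.65. Its groups did not overlap, by a margin of 0.02, and the difference of 0.48 ± 0.19 was not called (limma adjusted p = 0.119). TEL-JAK2 replicate 3 was the lowest TEL-JAK2 array in both probe sets.

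Cdkn1c encodes p57, known from quiescent stem cells and imprinted growth control. It read 6.09, 5.22 and 5.77 in ICN1 and 5.59, 5.38, 5.88 and 5.59 in TEL-JAK2. The TEL-JAK2 arrays lay inside the ICN1 range, and the difference was -0.09 ± 0.21 (95% interval -0.59 to 0.41, limma adjusted p = 0.828).

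None of the 4 INK4 probe sets was called by limma, and 2, those of Cdkn2b and Cdkn2c, had an unadjusted p under 0.05, against the same 32.4% of all probe sets. Cdkn2c, which encodes p18 and restrains the cycling of developing lymphocytes, read 10.85, 11.25 and 10.90 in ICN1 and 11.55, 11.45, 11.73 and 11.03 in TEL-JAK2. TEL-JAK2 replicates 1, 2 and 3 lay above the ICN1 arrays, and replicate 4 lay among them. The difference of 0.44 ± 0.18 was not called (limma adjusted p = 0.148), but was called without TEL-JAK2 replicate 4 (0.57, adjusted p = 0.0384).

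Cdkn2d, which encodes p19 of the INK4 family, was bright in all arrays. It read 11.45, 11.70 and 11.43 in ICN1 and 11.45, 11.10, 11.44 and 11.32 in TEL-JAK2, so the groups overlapped. The difference was -0.20 ± 0.13, with a 95% interval from -0.49 to 0.10 (limma adjusted p = 0.334).

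Cdkn2b, whose product p15 is induced by TGF-beta, read 4.82, 4.48 and 4.40 in ICN1 and 4.91, 5.82, 5.02 and 5.67 in TEL-JAK2. All TEL-JAK2 arrays lay above all ICN1 arrays, by a margin of 0.10, and replicates 2 and 4 stood highest. The difference of 0.79 ± 0.25, 1.73-fold, missed the threshold (limma adjusted p = 0.0665), and was called without TEL-JAK2 replicate 1 (0.94, adjusted p = 0.04998). The ICN1 values and those of TEL-JAK2 replicates 1 and 3 lay below the array medians.

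Cdkn2a encodes p16 and, in another reading frame, p19ARF. Its single probe set read 4.37, 3.84 and 4.17 in ICN1 and 4.76, 4.33, 3.95 and 4.52 in TEL-JAK2. All 7 values lay below the array medians and the groups overlapped (0.26 ± 0.21, limma adjusted p = 0.447). Without detection calls it cannot be said whether the gene was expressed, and the sources used here do not say which of its transcripts the probe set reads. Cdkn2a and Cdkn2b are neighbours on chromosome 4 (89274473 to 89294619 and 89306289 to 89311032, GRCm38.p6).

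**Figure D5:**
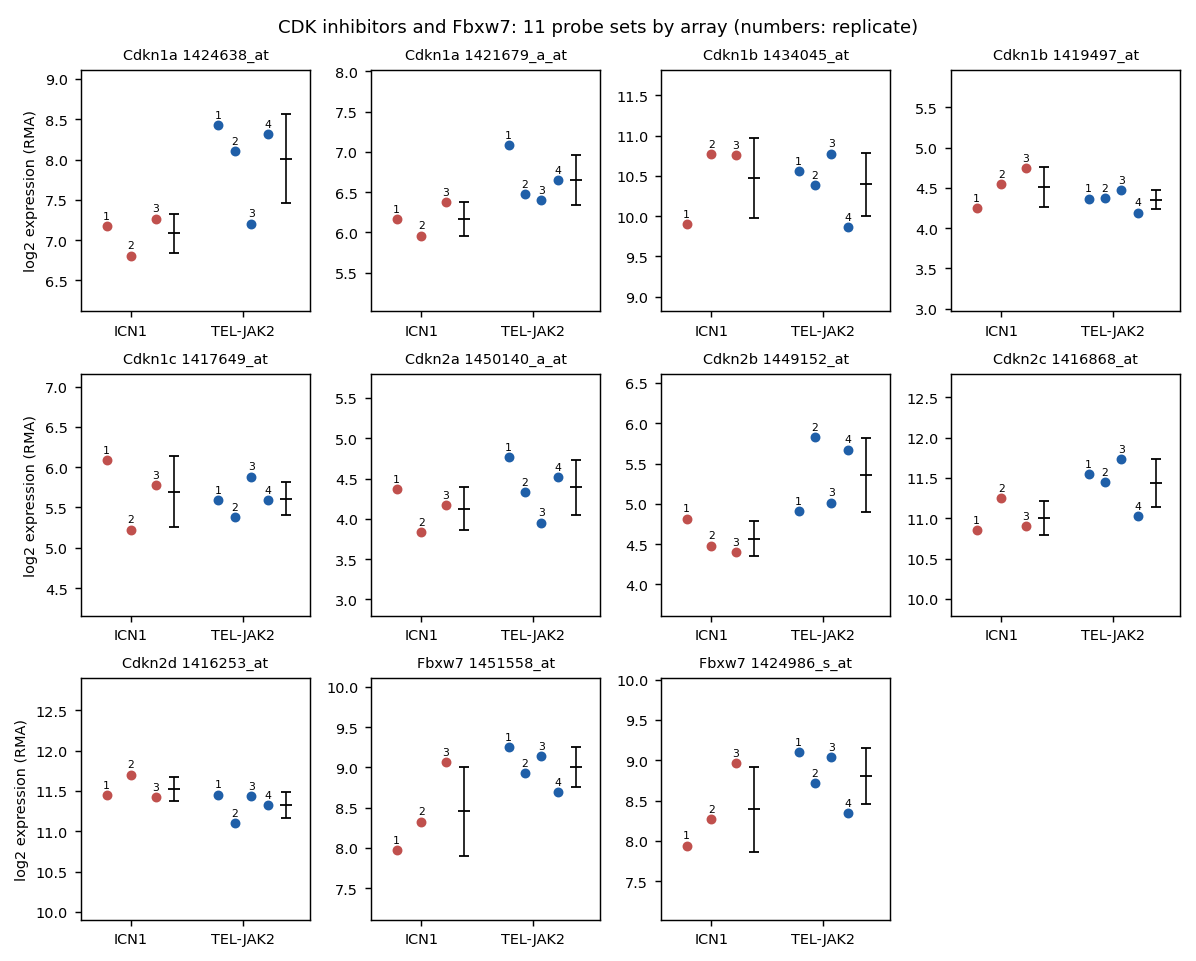
Log2 expression of the 11 probe sets of the CDK inhibitors and Fbxw7 in each array (points, numbered by replicate), with the mean and SD of each group beside them; each panel spans 3 log2 units. The groups overlap in 9 panels and are separate, by 0.02 and 0.10, in Cdkn1a 1421679_a_at and Cdkn2b.

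Fbxw7 encodes the receptor that destroys active NOTCH1, MYC and cyclin E. Probe set 1451558_at read 7.97, 8.33 and 9.06 in ICN1 and 9.25, 8.93, 9.14 and 8.69 in TEL-JAK2. ICN1 replicates 1 and 2 lay below all TEL-JAK2 arrays, and ICN1 replicate 3 lay among them. The difference of 0.55 ± 0.26 was not called (limma adjusted p = 0.199). It was called without ICN1 replicate 3 (0.85, adjusted p = 0.0275) and read -0.06 without ICN1 replicates 1 and 2.

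The second probe set, 1424986_s_at, is annotated to the same source transcript and gave the same order of ICN1 arrays, 7.94, 8.27 and 8.96. In TEL-JAK2 it read 9.10, 8.72, 9.04 and 8.34, and the difference was 0.41 ± 0.28 (limma adjusted p = 0.364). The ICN1 range of Fbxw7, 1.02 to 1.09, exceeded its TEL-JAK2 range of 0.56 to 0.76. Among ICN1 arrays, Fbxw7 was highest and Skp2 lowest in replicate 3. Every cell marker list was also lowest in that array, so the macrophage list (8.26 against 9.45 and 9.25) did not stand alone. The T-lineage list read 11.40 there and up to 11.55 in the other ICN1 arrays. The erythroid list read 11.14 and up to 11.39, and the granulocyte list 5.93 and up to 7.44. The part of any of these cell types was not tested.

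Genes whose proteins FBXW7 removes had 6 of 15 lower, 1 higher and 8 not called. Over all genes 12.2% were lower and 11.9% higher, so 1 higher of 15 is no more than that share. The cyclin E genes Ccne1 (4.0-fold, -2.0 ± 0.25) and Ccne2 (6.56-fold, -2.71 ± 0.37), the mitotic kinase gene Aurka (-2.01 ± 0.17) and the transcription factor gene Klf5 (-1.50 ± 0.09) were lower in TEL-JAK2. Klf5 was called in 1 of 3 probe sets and Aurka in 1 of 2. Myc was lower too (-1.16 ± 0.25). Mycn counts as lower by its brightest probe set (-4.41 ± 1.08), but 2 of its 3 probe sets were called higher, so its direction is not settled, and the call of the brightest was lost without any 1 of TEL-JAK2 replicates 1, 2 or 3. Mcl1, a survival gene of the BCL2 family, was the 1 higher gene (0.93 ± 0.12), in 6 of 6 probe sets, though not with CD3 centring (0.31, adjusted p = 0.0986). The 7 partners and regulators of FBXW7 included 2 lower genes, against the same 12.2% of all genes. These were Pa2g4, a growth regulator (-1.34 ± 0.16), and Hes5, a NOTCH-induced repressor of Fbxw7 (-1.01 ± 0.13). The kinase gene Gsk3b, whose product prepares FBXW7 substrates, was not called (0.09 ± 0.17).

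Among the G1 cyclins and kinases that the inhibitors hold, 5 of 14 were lower, 1 was higher and 8 were not called. The shares over all genes were 12.2% lower and 11.9% higher, so 1 higher of 14 is no more than that share. The higher gene was Ccnd2, cyclin D2, which read 10.56, 8.14 and 7.18 in ICN1 and 12.72, 12.54, 12.69 and 12.29 in TEL-JAK2. All TEL-JAK2 arrays lay above all ICN1 arrays, and the difference of 3.93 ± 0.71, 15.2-fold, was called in 7 of 7 probe sets. Cyclin A2 (Ccna2, -2.20 ± 0.28), both cyclin E genes and the phosphatase gene Cdc25a (-0.77 ± 0.16) were lower. Cdk4 was lower as well (-0.60 ± 0.17, limma adjusted p = 0.0394), and 2 of the 7 fits that leave out 1 array, those lacking ICN1 replicate 2 or TEL-JAK2 replicate 4, called it. Of the RB and E2F genes 9 of 13 were lower and 1, Rbl2, was higher, against the same shares over all genes. Among the 9, Rb1 (1 of 2 probe sets lower) was called in 2 of the 7 fits without 1 array. Rbl1 (2 of 4 probe sets lower) was called in 4 of those 7. The largest differences were those of Tfdp2, a dimerisation partner of E2F (-4.47 ± 0.27, 22.1-fold), and of E2f2 (-3.13 ± 0.48). The erythroid list moved with the groups here too (11.14 to 11.39 in ICN1 against 5.88 to 6.15 in TEL-JAK2). Its part in the differences of the G1, RB and E2F genes was not tested. The genes E2f2 (adjusted p = 0.0646), Cdc25a (0.137) and Cdk4 (0.139) were not called without ICN1 replicates 1 and 2. The RB and E2F list then had 6 lower and 2 higher, and the G1 list 3 lower and 2 higher.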

How the data were processed

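Expression of 7 Affymetrix arrays was deposited by the authors on the log2 scale. The submitters' processing notes name RMA (background correction, normalization across arrays, probe summary), without version or settings. RMA draws arrays to 1 distribution and compresses folds of dim probe sets. Gene symbols came from GEO's annotation of the platform: 34945 had 1 symbol, 932 several and 9160 none. Precision is limited by the number of arrays. No batch was tested, since neither the labels nor the table names one.

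The fit covered all 45037 probe sets (R 4.3.3, limma 3.58.1: lmFit, then eBayes; two-sided, with Benjamini-Hochberg adjustment). A second fit over 18193 genes, each by its brightest probe set, served the pathway lists. Replicates were numbered in accession order. The members and lists were chosen with earlier results of these data known. Named genes are the members, up to 4 called genes per list with the smallest and up to 2 with the largest adjusted p, the 3 genes most like Skp2, the 2 brightest markers of a list, and genes in any count of 5 or fewer. Ccne2 among FBXW7 targets, Pcna, E2f2, Rb1, Rbl1, Myc, Mycn, Slc4a1, Smad3, Smad4, Tgfbr2 and Stat5a were named after their values were seen. Promoter windows came from RefSeq (GRCm38.p6), for 8 of 9 members; Cdkn1c had no entry.

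Alternatives were other probe set summaries, filters, 4 scalings, variance models, thresholds and arrays left out. On simulated arrays of all 45037 probe sets the fit recovered 51 of 100 changed by 1 log2 and 87 of 100 changed by 2, with 11 false calls. No other probe set was changed there, whereas 19.6% were called in the real fit. These rates therefore do not give the sensitivity of the real fit. Figures used matplotlib 3.10.9.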

Additional observations from a re-analysis of the deposited data

How the results depend on the processing

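With the deposited scaling 8832 probe sets and 5 member probe sets were called. Left-out cross-hybridizing or dim probe sets, quantile normalization again, median centring, cyclic loess, trend with robust moderation and array weights gave 5 or 6 member calls. The fits without 1 array gave 5 to 7 member calls and 6175 to 8563 calls in all. One probe set per gene gave 4380 calls and 1 member, and averaging the probe sets of each gene 4329 and 1, since fewer features were tested. The test against a 1.5-fold difference called 2196 and 2, unequal variances without moderation 2266 and 2, and an adjusted p under 0.01 left 4152 and 3. Under each of these 3 the members called were Skp2 probe sets. Without ICN1 replicates 1 and 2, added after seeing the data, 5813 and 0 were called, with 1 ICN1 array left; at an unadjusted p under 0.05 that fit held 12208 probe sets. Centring on the mean of Cd247, Cd3d, Cd3e and Cd3g (CD3 centring), chosen in an earlier analysis after its values were seen, moved the median of all probe sets from 0.04 to -0.59, called 31563 and 10, and left 4.94% of calls higher, against 47.2%. With it all 6 Skp2 probe sets were lower, as were Cdkn1b (-0.70 and -0.78), Cdkn1c (-0.71) and Cdkn2d (-0.82). It turned Cdkn1a 1421679_a_at to -0.14, Cdkn2a to -0.36, Cdkn2c to -0.19 and Fbxw7 to -0.074 and -0.21, none of them called. Array weights turned Cdkn1b 1434045_at to 0.079. Without 1 array it ranged from -0.37 to 0.10 and Cdkn1c from -0.32 to 0.11. Without ICN1 replicates 1 and 2 Fbxw7 read -0.060 and -0.16. The cause of these changes was not tested. The alternative for values that are not on a log2 scale was not needed. No paired analysis was possible because the labels carry no replicate numbers shared between the groups.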

Other observations

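Among regulators of the inhibitor genes, TEL-JAK2 arrays were higher for 10 of 30 measured, against 11.9% of all genes, and lower for 3, against 12.2%, with a median of 0.42 against 0.04 for all genes. The TGF-beta receptor genes Tgfbr1 (1.31 ± 0.24) and Tgfbr2 (1.13 ± 0.22, in 1 of 3 probe sets) and the signal transducer Smad4 (0.72 ± 0.18), which act upstream of Cdkn2b, were higher, and so was Dmtf1, an activator of the ARF promoter (0.79 ± 0.14, in 1 of 3 probe sets). Of the fits that leave out 1 array, 3 of 7 called Smad4: those lacking ICN1 replicate 3, TEL-JAK2 replicate 2 or TEL-JAK2 replicate 4. Smad4 read 0.10 with CD3 centring and 0.29 without ICN1 replicates 1 and 2. Tgfbr1 (0.69) and Tgfbr2 (0.51) stayed higher with CD3 centring. Smad3, of the same list, was not called (0.47, limma adjusted p = 0.0904). Cbx7, a Polycomb repressor of the Cdkn2a locus, was higher (0.88 ± 0.17, in 1 of 3 probe sets), while the Polycomb genes Bmi1 (-1.12 ± 0.23) and Ezh2 (-0.72 ± 0.14) and the inhibitor of helix-loop-helix factors Id1 (-2.26 ± 0.50) were lower. Stat5a, a transducer of JAK2 signals, was higher (0.54 ± 0.11, in 1 of 2 probe sets), but read -0.08 with CD3 centring. With that centring 2 regulators were higher and 8 lower, and without ICN1 replicates 1 and 2 the counts were 5 and 2.

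Of 6 genes near Cdkn2a and Cdkn2b on chromosome 4, 1 was called, against 24.1% of all genes. This was Elavl2, dim in both groups (4.47 and 4.95 on average). It was higher (0.48 ± 0.10, in 1 of 5 probe sets), and read -0.14 with CD3 centring. It was not called without ICN1 replicates 1 and 2 (adjusted p = 0.174), and neither was any other of the 6. Mtap, a gene of methionine salvage, read 11.31, 9.28 and 9.02 in ICN1 and 9.40, 9.49, 9.13 and 9.53 in TEL-JAK2. ICN1 replicate 1 stood above the other ICN1 arrays, and the TEL-JAK2 arrays lay within the ICN1 range. Cyclin D1 (Ccnd1) was high in the same array, with 9.76, 6.10 and 5.34 in ICN1 and 5.97 to 7.75 in TEL-JAK2, and was not called (0.13 ± 1.03).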
